A study of Mus musculus with 25 samples.

Results

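The genes described here are 31 genes of fatty acid oxidation, ketone body metabolism and the response to the nuclear receptor PPARA. They were taken by symbol from a list of names, out of 24537 genes in a liver RNA sequencing table. The list was chosen with earlier results of these data known. All 31 were found in the table, and all 31 had enough counts to be tested among the 14133 genes that did. The livers came from male C57BL6/J mice aged 24 months that carried p53KO or Rosa26KO and were fed a high-fat diet (HFD) or a control diet. The groups were HFD_p53KO (n = 7), Control_p53KO (n = 6), HFD_Rosa26KO (n = 6) and Control_Rosa26KO (n = 6). Rosa26 is a locus often used as a neutral target, and Rosa26KO is taken here as the control genotype; no group without a knockout was analysed here. Each library is called a liver below. The labels do not state how, when or in which cells the knockouts were made, how long the diet was fed or whether the mice were fasted before the livers were frozen.

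Liver burns fatty acids mainly in mitochondria. Long-chain fatty acids enter as carnitine esters, are shortened by repeated cycles of dehydrogenation, hydration, dehydrogenation and thiolysis, and pass their electrons through the electron transfer flavoprotein. Very long chains are first shortened in peroxisomes, and in fasting the acetyl-CoA produced feeds ketone bodies. PPARA is a lipid-sensing receptor of hepatocytes that binds DNA with the retinoid X receptor and is known to raise many of these genes when fatty acids reach the liver, as in fasting or a fat-rich diet.

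The libraries held 16324283 to 21501281 counts, so 1 CPM (a read count scaled to the library's total) stood for at least 16.3 reads. Levels below are CPM after scaling between libraries. The tissue label was checked against markers. Summed over 7 hepatocyte genes, the level was 55340 to 169100 CPM in the 25 livers, while 4 muscle genes summed to at most 0.738 CPM and 5 adipocyte genes to at most 28.3 CPM. Trp53, the gene of p53, had 19.6 to 31.05 CPM in HFD_p53KO, 17.2 to 35.6 CPM in Control_p53KO, 30.6 to 43.8 CPM in HFD_Rosa26KO and 31.6 to 43.7 CPM in Control_Rosa26KO. For the mean of both diets its log2 fold change was -0.56 (SE 0.10) by edgeR's quasi-likelihood test. The unadjusted p of that test was 1.48e-05, and the adjusted p over all genes was 0.210. By the same test Trp53 was at -0.51 on HFD (unadjusted p = 0.00156) and at -0.61 on control diet (unadjusted p = 0.00044). Taken alone, as a check of the genotype label, Trp53 was thus lower in p53KO livers, though it was not called over all genes. The p53KO livers still held Trp53 reads, and the p53KO and Rosa26KO ranges overlapped on both diets.

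Some livers stood apart in these genes before any comparison. Each member was set against its group mean in log2 CPM, and the deviations were averaged over the 31 members. Control_p53KO 1 lay 0.71 below its group, with 30 of 31 members below the group mean. HFD_Rosa26KO 6 lay 0.58 below its group, also with 30 of 31 members below, and was the lowest liver of its group for 26 of them. Control_Rosa26KO 1 lay 0.52 below its group, with 29 members below. On the high side, Control_p53KO 4 lay 0.69 above its group with 0 members below the mean, Control_Rosa26KO 5 lay 0.43 above, and HFD_Rosa26KO 4 lay 0.37 above.

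Livers low in the members were among those high in neutrophil or inflammatory transcripts. The 8 neutrophil markers summed to 579 CPM in Control_p53KO 1, to 373 CPM in HFD_Rosa26KO 6 and to 73.7 CPM in Control_p53KO 3, against 3.05 to 32.3 CPM in the other 22 livers. The 7 acute phase genes, liver genes induced in inflammation, summed to 49830 CPM in Control_p53KO 1, 31290 CPM in Control_Rosa26KO 1 and 25940 CPM in HFD_p53KO 2. They summed to 12830 CPM in HFD_p53KO 7 and to 2915 to 10180 CPM in the rest. Control_p53KO 3 also had the highest sum of 6 Kupffer cell markers, 1694 CPM, against 134 to 759 CPM in the other livers. In bulk tissue, fewer cells of a type and less RNA per cell cannot be told apart. The part of these cells in the results was not tested. The main counts of called members are given with and without the livers high in neutrophil or acute phase genes.

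**Figure D1:**
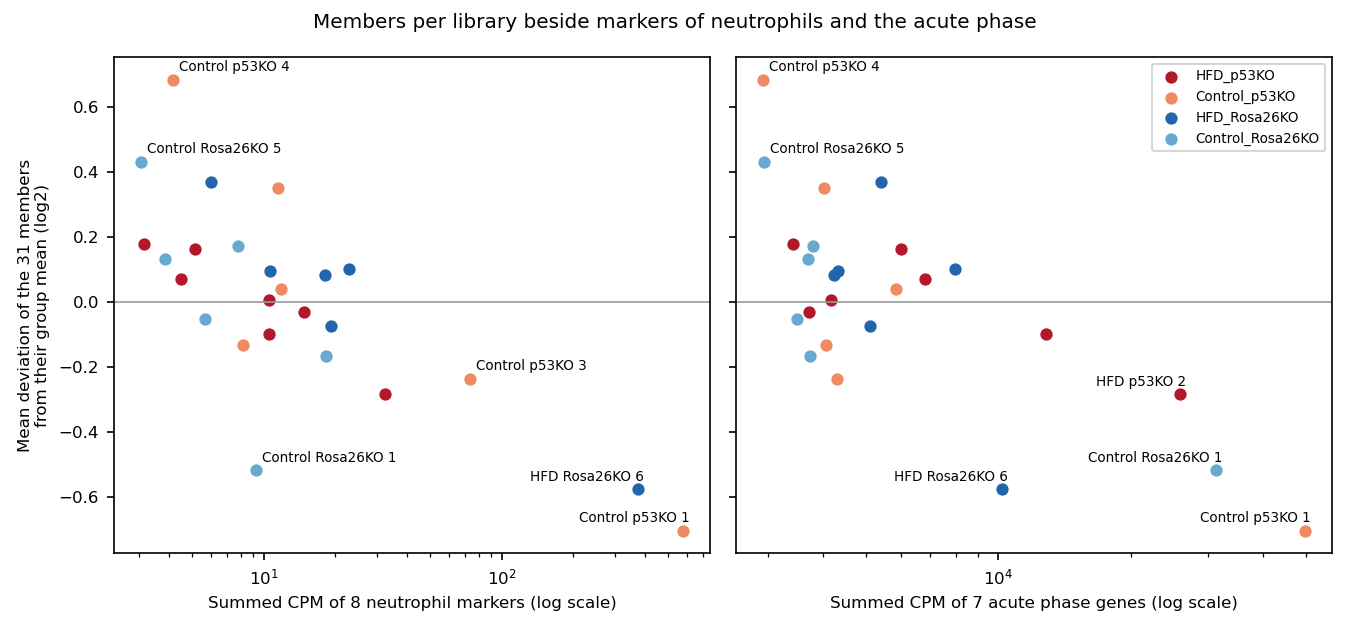
Each point is 1 liver; the vertical axis is the mean deviation of the 31 members from their group mean (log2) and the horizontal axes are the summed CPM of 8 neutrophil markers (left) and 7 acute phase genes (right), on log scales, with colours for the 4 groups. Control_p53KO 1 and HFD_Rosa26KO 6 lie 0.71 and 0.58 below their groups at 579 and 373 CPM of neutrophil markers, and Control_Rosa26KO 1 lies 0.52 below with 31290 CPM of acute phase genes.

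Averaged over both genotypes, 9 of the 31 genes were higher on HFD than on control diet and 0 were lower (edgeR quasi-likelihood test, adjusted p under 0.05 over all 14133 genes). They were Cpt1a, Slc25a20 and Crot of the carnitine shuttle, Hadhb of the mitochondrial spiral, Decr1 for unsaturated chains, Pex11a of the peroxisome, Bdh1 of ketone body metabolism, and the PPARA targets Angptl4 and Vnn1. The 9 are 29% of the members, while among all tested genes 4.64% were higher and 5.07% lower. In all, 28 of 31 members had a log2 fold change above 0, with a median of 0.32, while 47.6% of all tested genes were above 0, with a median of -0.01. The members were chosen with earlier results of these data known, so these shares describe the list and are no independent test of it. The changes were moderate, 1.27-fold (Hadhb) to 2.37-fold (Vnn1) for the 9 genes.

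Counted within each genotype, 3 members were higher on HFD in p53KO livers, Cpt1a, Slc25a20 and Pex11a, where 1.62% of all tested genes were higher and 1.25% lower. These calls lay near the threshold. Their number was 0 when any 1 of 6 of the p53KO livers was left out and 0 in a fit to the compared groups only. With a term for the run of library names it was 4, and without Control_p53KO 4 it was 10. Over all genes the reported fit called 229 higher and 176 lower. The compared groups only gave 73 and 48, the run term 363 and 270, and the fit without Control_p53KO 4 gave 454 and 306. In Rosa26KO livers 0 members passed, where 0.446% of all tested genes were higher and 1.06% lower. There the smallest adjusted p of a member was 0.0634 (Angptl4), and 5 members (16.1%) had an unadjusted p under 0.05, against 17.5% of all tested genes. DESeq2 called 1 member, with 223 genes higher and 392 lower in all. The run term also called 1 member, Angptl4, with 156 genes higher and 286 lower. Under limma voom 8 members were called, with 1493 genes higher and 1545 lower. The members above 0 were 29 of 31 in p53KO and 26 of 31 in Rosa26KO, with medians of 0.43 and 0.25 on the log2 scale. A test of the difference between the genotypes, given further on, called 0 members.

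**Figure D2:**
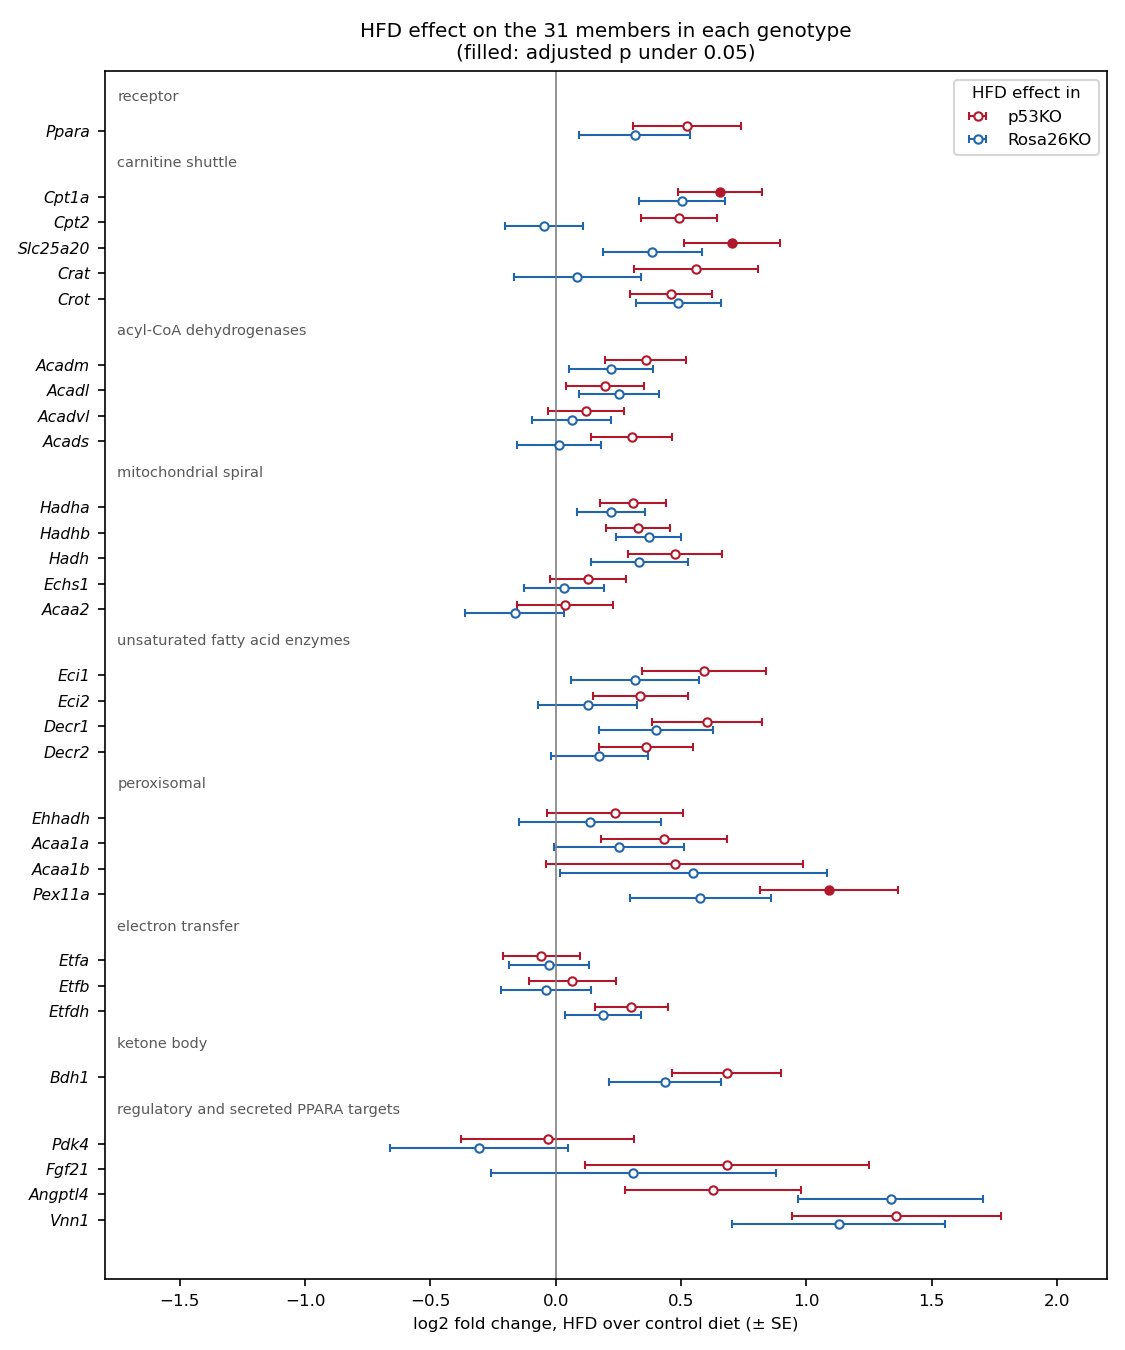
Points are log2 fold changes of HFD over control diet with standard errors for the 31 members, grouped by role, in p53KO and Rosa26KO livers; filled points passed the threshold of 0.05 on adjusted p. Most points lie right of 0, from -0.06 (Etfa) to 1.36 (Vnn1) in p53KO and from -0.31 (Pdk4) to 1.34 (Angptl4) in Rosa26KO, and the 3 filled points are Cpt1a, Slc25a20 and Pex11a in p53KO.

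Ppara itself, the receptor, was not called. It had 191 to 365 CPM (median 241) in HFD_p53KO, against 87.03 to 283 CPM (median 172) in Control_p53KO. In HFD_Rosa26KO it had 212 to 283 CPM (median 248), against 166 to 248 CPM (median 194) in Control_Rosa26KO. The ranges overlapped in both genotypes. For the mean of both genotypes its log2 fold change was 0.42 (SE 0.15, adjusted p = 0.0880), with a 95% interval of 0.10 to 0.74.

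The carnitine shuttle held 3 of the 9 called genes. Cpt1a (chromosome 19, 3322334 to 3385733, GRCm38) encodes the outer-membrane enzyme that makes acylcarnitines and is the main control point of entry. It had 405 to 680 CPM (median 472) in HFD_p53KO, against 205 to 450 CPM (median 305) in Control_p53KO. Of the 7 HFD_p53KO livers, 6 lay above every Control_p53KO liver. In HFD_Rosa26KO it had 402 to 532 CPM (median 475), against 256 to 428 CPM (median 312) in Control_Rosa26KO, and 4 of 6 HFD livers lay above every control liver. The log2 fold change was 0.66 (SE 0.17, adjusted p = 0.0342) in p53KO, 0.50 (SE 0.17, adjusted p = 0.132) in Rosa26KO and 0.58 (SE 0.12, adjusted p = 0.00373) for the mean. The highest value, 680 CPM, was that of HFD_p53KO 7.

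Slc25a20 (chromosome 9, 108662088 to 108684641) encodes the translocase that carries acylcarnitines across the inner membrane. It had 113, 117, 128, 144, 135, 142 and 122 CPM in the 7 HFD_p53KO livers, against 48.3, 78.8, 64.98, 124, 98.3 and 60.2 CPM in the 6 Control_p53KO livers. One control liver, Control_p53KO 4 with 124 CPM, lay inside the HFD range. It had 70.9 to 154 CPM (median 122) in HFD_Rosa26KO, against 68.4 to 128 CPM (median 92.5) in Control_Rosa26KO, and HFD_Rosa26KO 6 with 70.9 CPM lay among the controls. The log2 fold change was 0.70 (SE 0.19, adjusted p = 0.0454) in p53KO, 0.39 (SE 0.20, adjusted p = 0.313) in Rosa26KO and 0.54 (SE 0.14, adjusted p = 0.0136) for the mean. The call in p53KO held in 7 of the 25 fits that left out 1 liver, with an adjusted p of up to 0.1005.

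Crot makes carnitine esters of medium chains that leave the peroxisome. It had 563 to 702 CPM in HFD_p53KO, against 330 to 670 CPM in Control_p53KO, and 439 to 935 CPM in HFD_Rosa26KO, against 388 to 542 CPM in Control_Rosa26KO. Its log2 fold change was 0.46 in p53KO and 0.49 in Rosa26KO, and 0.47 for the mean (SE 0.12, adjusted p = 0.0124). Cpt2, the inner-membrane enzyme that releases acyl-CoA, averaged 147 ± 21.7 CPM in HFD_p53KO and 104 ± 28.0 CPM in Control_p53KO, but 133 ± 15.4 CPM in HFD_Rosa26KO and 137.5 ± 28.97 CPM in Control_Rosa26KO (SD). Its log2 fold change was 0.49 (adjusted p = 0.0746) in p53KO and -0.05 (adjusted p = 0.902) in Rosa26KO, so it was not called. Crat, carnitine acetyltransferase, was not called either, at 0.32 for the mean (95% interval -0.04 to 0.69).

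Promoters of a pair of called shuttle genes are shown because PPARA is known to bind a direct repeat of the half-site AGGTCA with 1 base between the copies. RefSeq promoter windows on GRCm38.p6, 250 bases before to 50 after the start of transcription, were found for 26 of the 31 members. Each was searched on both strands for this repeat, counting mismatches over its 12 letters. In the lines below, capitals mark the repeat with 2 mismatches in Slc25a20, which starts 6 bases after the start of transcription, and an exact half-site on the other strand in Cpt1a. The Slc25a20 line runs to the end of the repeat and the Cpt1a line to the start of transcription, both 5' to 3' on the gene's strand.
Slc25a20 (chr9:108661886-108662154, plus strand): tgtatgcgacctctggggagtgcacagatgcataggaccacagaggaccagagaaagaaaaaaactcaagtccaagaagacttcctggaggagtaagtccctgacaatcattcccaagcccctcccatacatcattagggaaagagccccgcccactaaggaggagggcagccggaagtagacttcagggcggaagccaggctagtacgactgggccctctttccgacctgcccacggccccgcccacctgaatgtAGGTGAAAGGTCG
Cpt1a (chr19:3323051-3323300, plus strand): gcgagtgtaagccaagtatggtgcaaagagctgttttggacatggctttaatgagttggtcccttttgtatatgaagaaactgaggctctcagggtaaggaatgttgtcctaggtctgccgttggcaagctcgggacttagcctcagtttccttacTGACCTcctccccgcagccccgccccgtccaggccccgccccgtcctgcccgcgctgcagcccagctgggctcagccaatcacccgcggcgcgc

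Of the 26 members with a window, 3 held the repeat with at most 2 mismatches, Slc25a20, Echs1 and Etfa, and 0 held it with 1 or none. Over all 27025 genes with a window, 4.40% held it with at most 2 mismatches and 0.644% with at most 1. The exact half-site was in 4 of the 26 members and in 18.1% of all genes. Only Slc25a20 of these 3 genes was called on HFD. The matching letters were these, on the strand where the repeat reads forward.
Slc25a20: AGGTGAAAGGTCG
Echs1: AGGTCACGGGTCC
Etfa: AGGGCAAAGGTAA

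The 4 acyl-CoA dehydrogenases, which open each mitochondrial cycle, had smaller values and 0 calls. For the mean of both genotypes their log2 fold changes ran from 0.09 (Acadvl, for very long chains) to 0.29 (Acadm, for medium chains). Acadm averaged 387 ± 70.3 CPM in HFD_p53KO and 301.5 ± 83.2 CPM in Control_p53KO, and 373 ± 67.6 CPM in HFD_Rosa26KO and 320 ± 44.6 CPM in Control_Rosa26KO (SD), with an adjusted p of 0.120 for the mean. Acadl, for long chains, was at 0.22 (adjusted p = 0.218) and Acads, for short chains, at 0.16 (adjusted p = 0.440). Of the 75-base words in Acadvl's exons, 19.5% also occur, read on either strand, in Dvl2, which overlaps Acadvl on the opposite strand. The Acadvl counts can include reads of that neighbour if counting ignored the strand, which is not given in the sources used here.

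In the mitochondrial spiral, 1 of 5 genes was called. Hadhb encodes the thiolase subunit of the trifunctional protein, and Hadha encodes the subunit with its hydratase and dehydrogenase activities. Hadhb had 135 to 167 CPM (median 153) in HFD_p53KO, against 90.8 to 164 CPM (median 118) in Control_p53KO. It had 136 to 178 CPM (median 161) in HFD_Rosa26KO, against 85.98 to 149 CPM (median 129) in Control_Rosa26KO, and 5 of 6 HFD livers lay above every control liver. The log2 fold change was 0.33 in p53KO, 0.37 in Rosa26KO and 0.35 for the mean (SE 0.09, adjusted p = 0.0162). Hadha had 0.26 for the mean (SE 0.09, adjusted p = 0.0778), and its 95% interval of 0.07 to 0.46 contained the Hadhb value. Of the 75-base words of Hadhb, 16.7% also occur in another annotated gene, mostly Gm13910, so its counts are less certain.

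Hadha and Hadhb lie head to head on chromosome 5 (30118304 to 30155162 and 30155248 to 30184593), with 85 bases between their annotated starts. Whether they share a promoter was not tested. The stretch before the Hadhb start is shown because it spans both annotated starts, and its first part lies inside the annotated Hadha gene. It holds no exact half-site, and its closest stretch to the repeat had 4 mismatches.
Hadhb (chr5:30155003-30155252, plus strand): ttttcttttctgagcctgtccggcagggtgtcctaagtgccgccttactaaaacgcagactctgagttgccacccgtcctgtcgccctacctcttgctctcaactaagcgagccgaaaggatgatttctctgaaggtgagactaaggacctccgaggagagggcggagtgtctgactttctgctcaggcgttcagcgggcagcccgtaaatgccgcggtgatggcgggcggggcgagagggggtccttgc

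The other 3 genes of the spiral were not called. Hadh, the short-chain hydroxyacyl-CoA dehydrogenase, had 303 to 489 CPM in HFD_p53KO, against 197 to 475 CPM in Control_p53KO, and 291 to 586 CPM in HFD_Rosa26KO, against 275 to 474 CPM in Control_Rosa26KO, with 0.41 for the mean (SE 0.13, adjusted p = 0.0575). Echs1, the short-chain hydratase, was at 0.08 (95% interval -0.15 to 0.31). Acaa2, the mitochondrial thiolase, was at -0.06 (95% interval -0.35 to 0.22). Per kilobase of exon Acaa2 was the highest member in 3 of 4 groups, at 374 CPM per kb in HFD_p53KO, 365 in Control_p53KO, 398 in HFD_Rosa26KO and 446 in Control_Rosa26KO.

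Of the 4 enzymes for unsaturated chains, Decr1, the mitochondrial dienoyl-CoA reductase, was called. It had 138 to 205 CPM (median 173) in HFD_p53KO, against 57.7 to 193 CPM (median 98.2) in Control_p53KO, and 91.1 to 212 CPM (median 170) in HFD_Rosa26KO, against 81.8 to 167 CPM (median 119.5) in Control_Rosa26KO. The log2 fold change for the mean was 0.50 (SE 0.16, adjusted p = 0.0459). This call was the least stable of the 9 and held in 7 of the 25 fits that left out 1 liver, with an adjusted p of up to 0.0831. Eci1 (0.45, adjusted p = 0.111) and Eci2 (0.23, adjusted p = 0.316), which shift double bonds, and Decr2, the peroxisomal reductase (0.27, adjusted p = 0.230), were not called.

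Among the peroxisomal genes Pex11a stood out. It encodes a membrane protein that takes part in the growth and division of peroxisomes (chromosome 7, 79735957 to 79743131). It had 57.01, 52.3, 64.2, 78.3, 41.7, 56.9 and 33.95 CPM in the 7 HFD_p53KO livers, against 12.9, 25.97, 22.4, 44.8, 30.2 and 18.7 CPM in the 6 Control_p53KO livers. Apart from Control_p53KO 4 with 44.8 CPM, every control liver lay below every HFD liver. In HFD_Rosa26KO it had 23.2 to 66.7 CPM (median 49.05), against 19.3 to 48.05 CPM (median 34.2) in Control_Rosa26KO, and these ranges overlapped. The log2 fold change was 1.09 (SE 0.28, adjusted p = 0.0327) in p53KO, 0.58 (SE 0.28, adjusted p = 0.288) in Rosa26KO and 0.83 (SE 0.20, adjusted p = 0.00907) for the mean. Its promoter, shown as the gene with the largest called change in p53KO, held no exact half-site, and its closest stretch to the repeat had 5 mismatches.
Pex11a (chr7:79743132-79743381, minus strand): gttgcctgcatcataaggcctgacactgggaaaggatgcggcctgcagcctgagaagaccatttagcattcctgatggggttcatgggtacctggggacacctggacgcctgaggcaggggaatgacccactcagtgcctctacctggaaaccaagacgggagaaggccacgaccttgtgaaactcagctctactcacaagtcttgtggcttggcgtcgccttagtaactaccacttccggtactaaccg

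The 3 peroxisomal enzymes were not called. Ehhadh, the bifunctional enzyme, had 161 to 423 CPM in HFD_p53KO, against 140 to 497 CPM in Control_p53KO, and 172 to 387 CPM in HFD_Rosa26KO, against 160 to 398 CPM in Control_Rosa26KO, with 0.19 for the mean (95% interval -0.22 to 0.59). Acaa1a and Acaa1b encode the peroxisomal thiolases, and their counts are uncertain because 12.6% of the 75-base words of Acaa1a and 32.3% of those of Acaa1b are shared, mostly with each other. Among the oxidation enzymes Acaa1b had the largest spread between livers, with a coefficient of variation of 41.0% in HFD_p53KO, 87.4% in Control_p53KO, 49.6% in HFD_Rosa26KO and 51.8% in Control_Rosa26KO. It had 866, 249.8, 880, 1008, 514, 726 and 442 CPM in HFD_p53KO, against 70.3, 414, 355, 1293, 476 and 283 CPM in Control_p53KO. In HFD_Rosa26KO it had 737, 1058, 1069, 1549, 1046 and 151 CPM, against 162, 799, 979, 505, 973 and 416 CPM in Control_Rosa26KO. The lowest 2 livers, Control_p53KO 1 and HFD_Rosa26KO 6, are those with the most neutrophil transcripts. Its log2 fold change for the mean was 0.51 with a 95% interval of -0.25 to 1.28, and that of Acaa1a was 0.34 (95% interval -0.03 to 0.72).

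The 3 electron transfer genes lay closest to 0 as a group, with a median of 0.01. Etfa and Etfb, the subunits of the electron transfer flavoprotein, were at -0.04 (95% interval -0.27 to 0.19) and 0.01 (95% interval -0.24 to 0.27) for the mean. Etfdh, which passes their electrons to ubiquinone, was at 0.25 (95% interval 0.03 to 0.46, adjusted p = 0.148). Of the 75-base words of Etfb, 39.6% also occur in Gm45233, which overlaps its exons on the same strand.

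Bdh1 (chromosome 16, 31422280 to 31458901), which interconverts the ketone bodies acetoacetate and hydroxybutyrate, was called for the mean. It had 204.5 to 366 CPM (median 256) in HFD_p53KO, against 80.5 to 271 CPM (median 166) in Control_p53KO, and 175 to 390.2 CPM (median 289.9) in HFD_Rosa26KO, against 141 to 286 CPM (median 199) in Control_Rosa26KO. The log2 fold change was 0.68 (adjusted p = 0.0813) in p53KO, 0.44 (adjusted p = 0.313) in Rosa26KO and 0.56 (SE 0.16, adjusted p = 0.0237) for the mean. The antisense gene Gm15743 overlaps its exons and shares 9.74% of its 75-base words, and whether counting used the strand is not given in the sources used here.

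The regulatory and secreted PPARA targets split. Vnn1, a pantetheinase that is a known PPARA target in mouse liver, had the largest log2 fold change for the mean, 1.25 (SE 0.30, adjusted p = 0.00994). It had 115, 139, 136, 172, 133, 132 and 80.6 CPM in HFD_p53KO, against 13.1, 42.6, 55.7, 121, 49.7 and 20.7 CPM in Control_p53KO. In HFD_Rosa26KO it had 119, 111, 144, 192.5, 135 and 29.4 CPM, against 27.04, 45.4, 71.7, 41.02, 105 and 43.8 CPM in Control_Rosa26KO. Control_p53KO 4 lay in the HFD range, and HFD_Rosa26KO 6 in the control range. Within a genotype it was not called, at 1.36 (adjusted p = 0.0732) in p53KO and 1.13 (adjusted p = 0.172) in Rosa26KO.

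Angptl4, a secreted inhibitor of lipoprotein lipase, was higher by 0.98 for the mean (SE 0.25, adjusted p = 0.0161). It had 33.8 to 71.5 CPM (median 56.5) in HFD_p53KO, against 13.04 to 59.9 CPM (median 30.6) in Control_p53KO. It had 22.4 to 73.2 CPM (median 51.97) in HFD_Rosa26KO, against 7.60 to 34.5 CPM (median 19.98) in Control_Rosa26KO. Unlike most members it was at its highest, 73.2 CPM, in HFD_Rosa26KO 6. Its log2 fold change was 0.63 (adjusted p = 0.346) in p53KO and 1.34 (adjusted p = 0.0634) in Rosa26KO. Without the 4 livers high in acute phase genes the mean was 0.76, with an adjusted p of 0.0692.

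**Figure D3:**
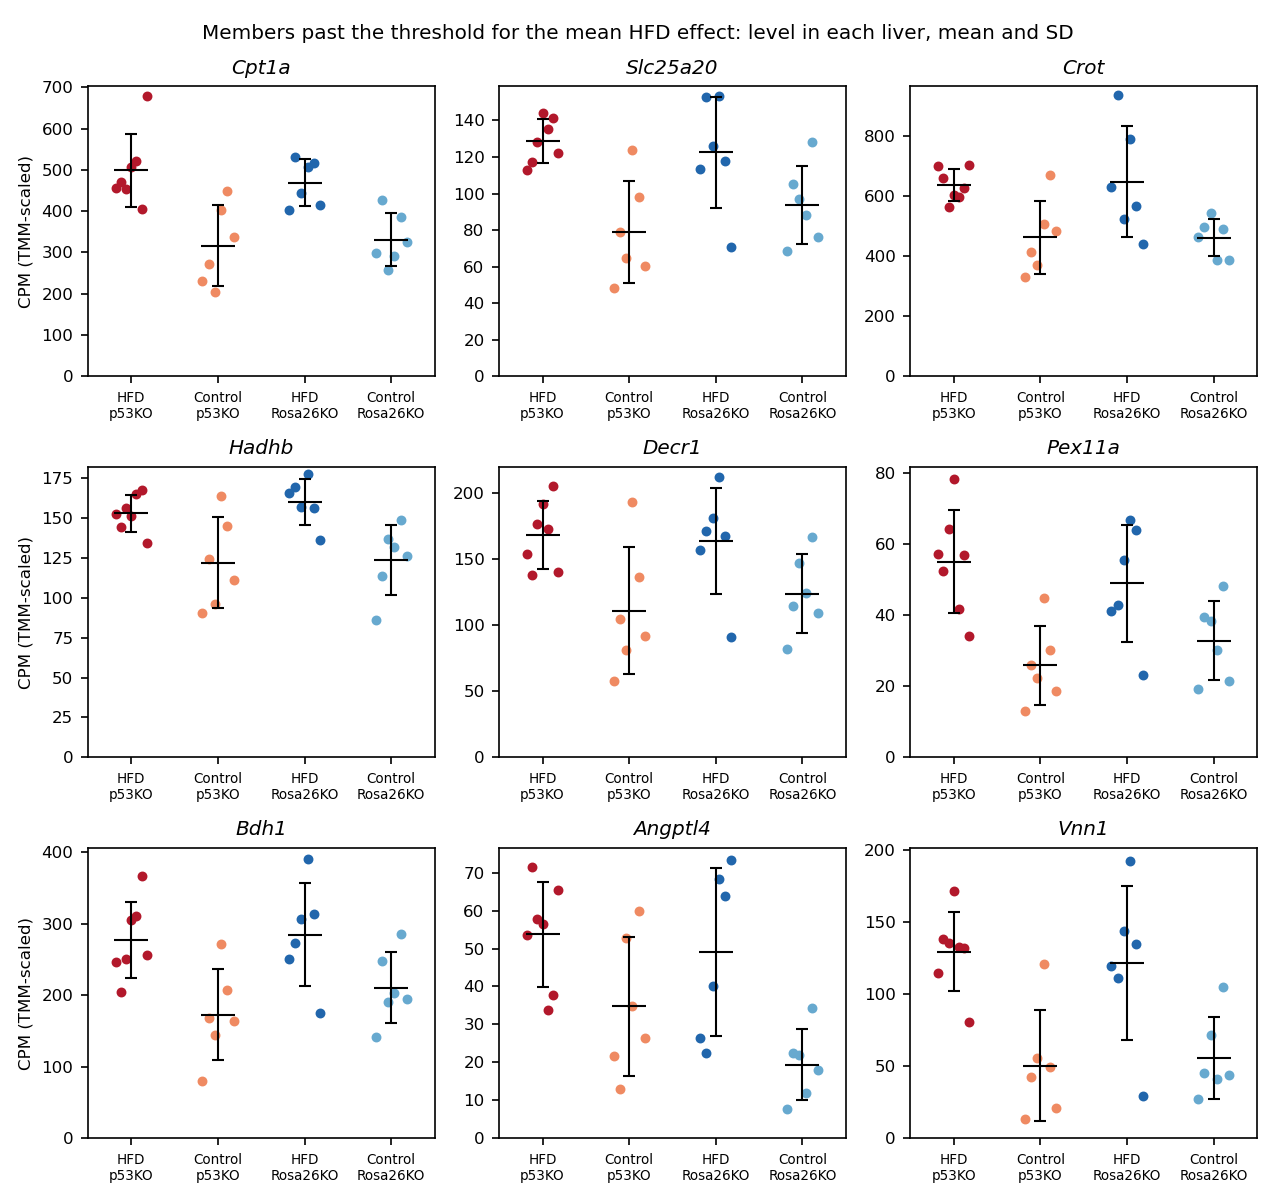
Each panel gives 1 of the 9 genes called for the mean HFD effect, with 1 point per liver in CPM and bars for mean and SD; groups from left to right are HFD_p53KO (n = 7), Control_p53KO (n = 6), HFD_Rosa26KO (n = 6) and Control_Rosa26KO (n = 6). The HFD means lie above the control means in both genotypes, and the groups overlap, with Control_p53KO 4 high (Vnn1 121 CPM) and HFD_Rosa26KO 6 low (Vnn1 29.4 CPM) in most panels.

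Pdk4 and Fgf21, both known as strongly fasting-induced PPARA targets in mouse liver, were not called. Pdk4 encodes a kinase that switches off pyruvate dehydrogenase. It had 3.95 to 27.8 CPM (median 14.2) in HFD_p53KO, against 10.15 to 24.9 CPM (median 14.1) in Control_p53KO. It had 14.4 to 27.5 CPM (median 19.6) in HFD_Rosa26KO, against 14.8 to 54.6 CPM (median 20.8) in Control_Rosa26KO. The groups overlapped in both genotypes, and the log2 fold change for the mean was -0.17, with a 95% interval of -0.68 to 0.34. Fgf21 encodes a liver hormone and had 1.48 to 8.56 CPM (median 6.42) in HFD_p53KO, against 0.116 to 6.73 CPM (median 3.12) in Control_p53KO. It had 2.61 to 13.3 CPM (median 7.03) in HFD_Rosa26KO, against 0.910 to 14.8 CPM (median 5.50) in Control_Rosa26KO. Its log2 fold change for the mean was 0.50, and the 95% interval of -0.33 to 1.32 was the widest of the 31. Per kilobase of exon these were the 2 members of lowest level in HFD_p53KO, Control_p53KO and HFD_Rosa26KO, while in Control_Rosa26KO Angptl4 was lower, at 5.49 CPM per kb, against 6.38 for Fgf21 and 7.18 for Pdk4.

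**Figure D4:**
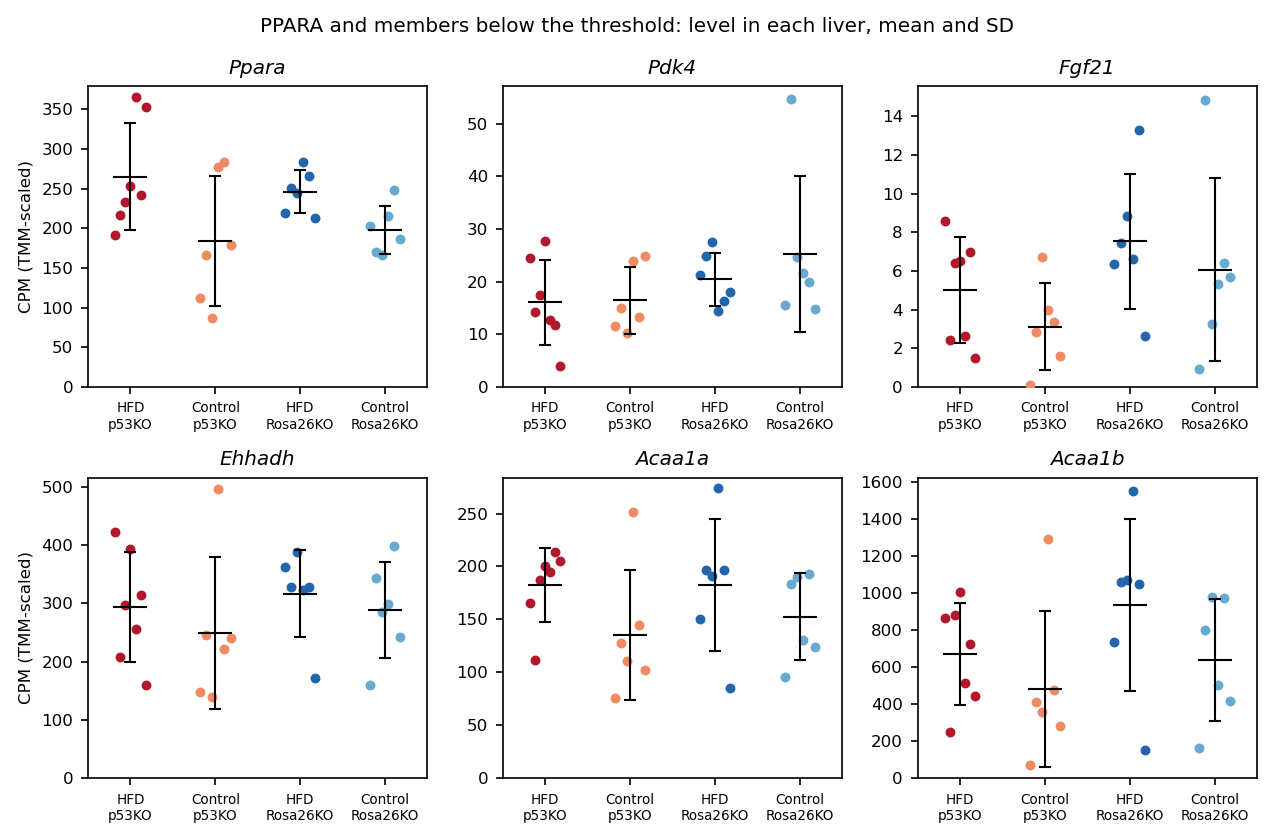
Each panel gives Ppara or 1 of 5 members below the threshold, with 1 point per liver in CPM and bars for mean and SD; groups from left to right are HFD_p53KO (n = 7), Control_p53KO (n = 6), HFD_Rosa26KO (n = 6) and Control_Rosa26KO (n = 6). HFD and control livers overlap in every panel; Acaa1b runs from 70.3 to 1549 CPM over all livers, and Pdk4 is highest in Control_Rosa26KO 2 at 54.6 CPM.

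Whether Pdk4, Angptl4, Fgf21 and Cpt1a varied together from liver to liver was asked over all 25 livers, as deviations from the group mean in log2 CPM. Of the 6 pairs, 0 passed after Benjamini-Hochberg adjustment over the 6. The closest was Pdk4 with Fgf21, with Pearson's r of 0.45 (permutation p = 0.0286, adjusted p = 0.171) and Spearman's rho of 0.31 (permutation p = 0.152, adjusted p = 0.411). Without Control_Rosa26KO 2 and HFD_p53KO 7, the 2 livers farthest from the median of Pdk4, r was 0.27. Within the 3 runs of library names r was 0.87, -0.08 and 0.33. For the other 5 pairs r ran from -0.07 (Pdk4 with Angptl4) to 0.31 (Angptl4 with Fgf21).

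The library names go from 1941 to 1965 without a gap, and the labels do not say what they mean. They were split here, where the order of the groups repeats, into 3 runs, 1941 to 1948, 1949 to 1956 and 1957 to 1965. This split is an inference and no stated batch. Each run holds livers of all 4 groups. Of 8 clock genes, mean levels rose over the runs for Dbp, Nr1d1, Nr1d2, Ciart and Per2 and fell for Arntl, Npas2 and Cry1. The runs were not tested against each other. Dbp, an output gene of the circadian clock, averaged 4.81 ± 2.52 CPM (SD, n = 8) in the first run, 22.8 ± 15.9 CPM (SD, n = 8) in the second and 40.3 ± 22.7 CPM (SD, n = 9) in the third. Arntl, a core activator of the clock, averaged 32.2 ± 4.92 CPM, 20.1 ± 6.92 CPM and 18.8 ± 7.12 CPM in the same order, and Per2, a repressor, 18.6 ± 4.30 CPM, 20.3 ± 6.62 CPM and 21.9 ± 7.44 CPM. Within every run the 9 called genes were higher on HFD than on control diet, as the mean of both genotypes in log2 CPM. The 9 were called for that mean over the same livers, so this is not independent of the call. Of all 31 members, 29, 28 and 25 were above 0 in the 3 runs, and 24 in every run. For Vnn1 the difference was 2.06, 1.25 and 0.85, and for Crot 0.78, 0.46 and 0.18. In the Rosa26KO livers of the third run alone (2 per diet), Slc25a20 (-0.11), Decr1 (-0.13), Vnn1 (-0.11) and Bdh1 (-0.01) were lower on HFD. There Cpt1a (0.38), Crot (0.19), Hadhb (0.09), Pex11a (0.26) and Angptl4 (1.45) were higher. These livers include HFD_Rosa26KO 6, which lay 0.58 below its group over the members, and Control_Rosa26KO 5, which lay 0.43 above. For Slc25a20, Decr1, Vnn1 and Bdh1, HFD_Rosa26KO 6 was the lowest liver of its group and Control_Rosa26KO 5 the highest. The part of these livers in the signs was not tested. With a term for the run, 10 members were called for the mean, with 841 genes higher and 950 lower in all. The part of the clock in these differences was not tested.

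**Figure D5:**
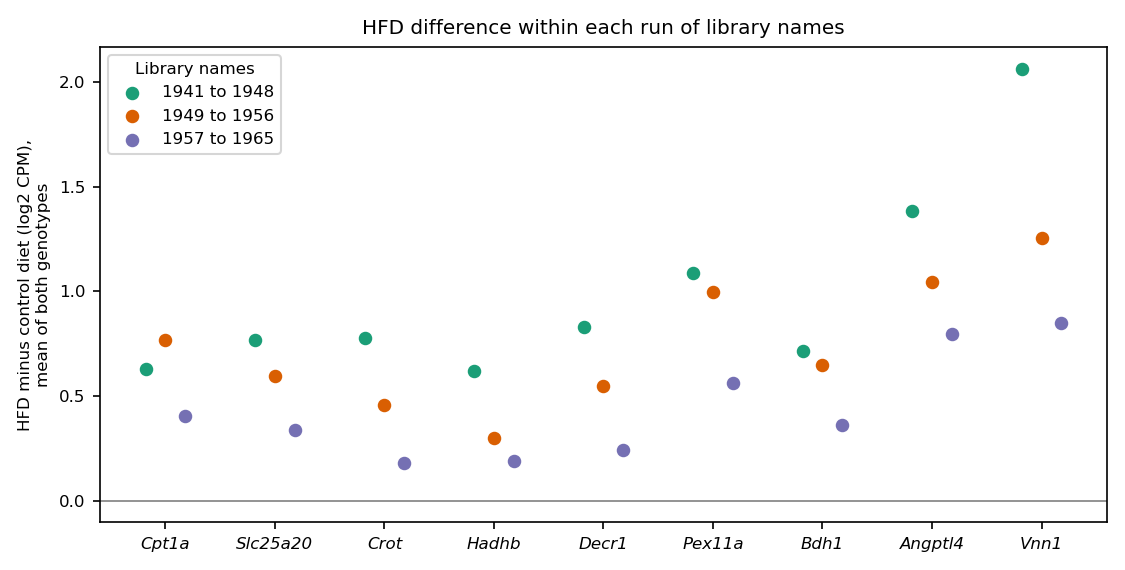
Points are the HFD minus control diet difference in log2 CPM, averaged over both genotypes, within each of 3 runs of library names, for the 9 called genes. Each of the 27 points lies above 0, and the run 1957 to 1965 has the lowest point for each gene, such as 0.85 for Vnn1 and 0.40 for Cpt1a.

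Some hepatocyte markers were lower on HFD. Their summed level was 55340 to 118400 CPM in HFD_p53KO, against 79260 to 144900 CPM in Control_p53KO, and 64590 to 169100 CPM in HFD_Rosa26KO, against 107200 to 166700 CPM in Control_Rosa26KO. Of the 7 markers, 3 were lower on HFD for the mean of both genotypes and 0 higher, with a median log2 fold change of -0.52. Over all tested genes 5.07% were lower and 4.64% higher for that mean. The 8 neutrophil markers, 6 Kupffer cell markers and 7 acute phase genes had 0 calls for that mean, at medians of -0.10, -0.32 and -0.52. Of 6 sinusoidal endothelial markers 1 was lower (median -0.25), and of 5 stellate cell markers 1 was lower (median -0.17). A single call in lists this short is no result about the cell type. The part of these shifts in the result was not tested.

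The 9 calls for the mean held without the livers high in neutrophil genes. Without Control_p53KO 1, Control_p53KO 3 and HFD_Rosa26KO 6 the same 9 genes were called, and Vnn1 was at 1.24 (adjusted p = 0.00300). Of all 14230 genes tested in that fit, 1223 were higher and 1277 lower, against 656 and 716 with all livers. Within p53KO the number of calls was 0 without these 3 livers and the members' median 0.17, against 0.43 with all livers. In all, 226 genes were higher and 262 lower there, against 229 and 176 with all livers. Pex11a was then at 0.87 (adjusted p = 0.0722), Slc25a20 at 0.51 (adjusted p = 0.0989) and Cpt1a at 0.44 (adjusted p = 0.119). Leaving out only Control_p53KO 2, Control_p53KO 6 or HFD_p53KO 4, which were not high in neutrophil genes, also gave 0 calls. In those fits the members' median was 0.41, 0.36 and 0.35. Over all genes 95, 120 and 97 were higher and 84, 111 and 76 lower. The cause of either loss of calls was not tested. With the 3 livers high in neutrophil genes left out, 2 members were called in Rosa26KO, Vnn1 and Crot, and the median was 0.32. There 203 genes were higher and 335 lower in all, against 63 and 150 with all livers.

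No member was called between genotypes. For p53KO against Rosa26KO on HFD, on control diet and for the mean of both diets, 0 of 31 members and 0% of all tested genes were called by edgeR. Over all tested genes the counts with an unadjusted p under 0.05 were 509, 1408 and 573, and among members they were 0, 2 and 0. DESeq2 called 1, 1 and 7 genes in these 3 comparisons and limma voom 0, 0 and 2, none of them a member. The members with an unadjusted p under 0.05 on control diet were Cpt2 and Angptl4, which pointed in opposite directions. Cpt2 was at -0.40 (SE 0.16, adjusted p = 0.473) and Angptl4 at 0.84 (SE 0.37, adjusted p = 0.473).

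On control diet 29 of 31 members had a lower fitted level in p53KO than in Rosa26KO, with a median log2 fold change of -0.16, while 51.9% of all tested genes were above 0, with a median of 0.01. Without the 3 livers high in neutrophil genes that median was 0.04. On HFD 17 of 31 were above 0 and the median was 0.00. The 95% half-width had a median of 0.39 over the members on HFD and 0.41 on control diet, on the log2 scale, so differences within that width of 0 could not be told from 0 for a typical member. Fgf21 had the lowest fitted values, -0.59 on HFD (95% interval -1.72 to 0.54) and -0.96 on control diet (95% interval -2.17 to 0.25).

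Whether the HFD effect differed between genotypes was tested as an interaction, taken as the HFD effect of p53KO livers less the HFD effect of Rosa26KO livers. Of the members 0 were called, as were 0% of all tested genes, with 1221 genes and 1 member (Cpt2) at an unadjusted p under 0.05. DESeq2 called 5 genes and limma voom 0, none of them a member. Cpt2 had the highest value, 0.54 (SE 0.22, adjusted p = 0.560), and Angptl4 the lowest, -0.71 (SE 0.50, adjusted p = 0.667). The median over the members was 0.18 with all livers and -0.15 without the 3 livers high in neutrophil genes.

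Beyond the 31, a list of 81 other genes of the same pathways was examined, of which 79 were tested. This list too was chosen with earlier results of these data known. For the mean HFD effect 9 were higher and 5 lower, with 47 of 79 above 0 and a median of 0.07, where 4.64% of all tested genes were higher, 5.07% lower and 47.6% above 0. The share lower is near that of all genes and is no result about the list. Those higher included genes that supply or handle fatty acids beside the oxidation enzymes. Slc22a5, the plasma membrane carnitine transporter, averaged 23.3 ± 1.94 CPM in HFD_p53KO and 14.5 ± 2.56 CPM in Control_p53KO, and 20.2 ± 3.29 CPM in HFD_Rosa26KO and 13.9 ± 1.61 CPM in Control_Rosa26KO (SD), with a log2 fold change of 0.61 (SE 0.08, adjusted p = 6.18e-05). It was the only gene of either list called higher in both genotypes, at 0.68 (adjusted p = 0.00309) in p53KO and 0.54 (adjusted p = 0.0168) in Rosa26KO. Plin2, a coat protein of lipid droplets, was higher by 0.77 (adjusted p = 0.00322), Acad12, of the acyl-CoA dehydrogenase family, by 0.75 (adjusted p = 0.00262), and Aldh3a2, a fatty aldehyde dehydrogenase, by 1.03 (adjusted p = 0.0181).

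The 5 lower genes were Acacb, Hacl1, Acsl5, Ppargc1a and Acadsb. Acacb, whose product makes the malonyl-CoA that inhibits carnitine palmitoyltransferase, averaged 86.8 ± 34.6 CPM in HFD_p53KO and 212 ± 103.5 CPM in Control_p53KO, and 112 ± 36.7 CPM in HFD_Rosa26KO and 296 ± 79.8 CPM in Control_Rosa26KO (SD). It fell by 1.34 on the log2 scale for the mean (SE 0.22, adjusted p = 0.000539) and was called in both genotypes. Hacl1, a peroxisomal lyase of alpha-oxidation, fell by 0.87 (adjusted p = 0.00202), and Acsl5, an acyl-CoA synthetase, by 0.54 (adjusted p = 0.00926). Ppargc1a, a coactivator of PPARA, had 4.88 ± 1.25 CPM in HFD_p53KO and 8.60 ± 3.13 CPM in Control_p53KO, and 6.08 ± 1.02 CPM in HFD_Rosa26KO and 8.14 ± 2.69 CPM in Control_Rosa26KO (SD), and fell by 0.62 (adjusted p = 0.0199). Acadsb, a dehydrogenase of branched short chains, fell by 0.39 (adjusted p = 0.0259).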

How the data were processed

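PolyA RNA of 25 liver samples was sequenced in paired reads of 75 bases, per the labels' protocols. The deposited values are raw counts per gene in 1 table; per the submitters' processing notes STAR, HOMER and the genome build GRCm38 (mm10) were used by the authors. Their versions and roles, the annotation, the strand and the treatment of multiply matching reads were not given in the sources used here. Groups came from sample titles. The labels do not say that each sample is a separate mouse, so p-values measure the spread between these samples.

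Genes were filtered by filterByExpr (minimum count 10, minimum total 15), scaled by TMM and fitted in edgeR 4.0.16 (R 4.3.3) with 1 mean per group over all 25 libraries. Quasi-likelihood p-values, two-sided, were adjusted by Benjamini-Hochberg over the 14133 genes tested, with a threshold of 0.05. CPM values were scaled by TMM. Co-variation used a prior count of 2 in log2 CPM, and 100000 permutations within groups, two-sided.

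The members and lists were chosen with earlier results of these data known. All 31 members are named; of other pathway genes, up to 6 of smallest p past the threshold in each direction were eligible, and some eligible genes are not reported here. Alternatives were RLE scaling, no filter, DESeq2 1.42.0, limma voom (limma 3.58.1) with quality weights, no robust option, a replicate block, a term for runs of library names, the compared groups only, libraries high in neutrophil or acute phase genes left out, and each library left out in turn. The fit was tested on simulated data. Positions, exons and 75-base words came from GENCODE M21 on GRCm38, and promoters from RefSeq. Figures used Python 3.11.15 and matplotlib 3.10.9.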

Additional observations from a re-analysis of the deposited data

Results flagged for a closer look

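Each member was examined in each group for a liver whose distance to its nearest neighbour was large against the range of the group (Dixon's criterion at the 95% level). Of 124 such examinations 7 met it, and chance alone gives about 1 in 20.

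Control_p53KO 4 was far above the rest of its group for Ehhadh (497 CPM, the next liver at 246 CPM) and for Acaa1b (1293 CPM, the next at 476 CPM). HFD_Rosa26KO 6 was far below its group for Ehhadh (172 CPM, the next at 322 CPM) and for Crat (40.7 CPM, the next at 87.6 CPM). HFD_Rosa26KO 4 was far above its group for Eci2 (153 CPM, the next at 119.5 CPM). HFD_p53KO 7 was far above its group for Cpt1a (680 CPM, the next at 521 CPM), and Control_Rosa26KO 2 for Pdk4 (54.6 CPM, the next at 24.7 CPM).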

How the results depend on the processing

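For the mean HFD effect 9 members were called. The count was 19 under limma voom (2572 genes higher and 2438 lower in all) and 14 with the replicate block (1097 and 1185). It was 7 to 11 under the other alternatives. When 1 liver was left out it was 8 to 14, with 14 without Control_p53KO 4 (734 and 729). The reported fit called 656 genes higher and 716 lower. Hadhb, Pex11a, Vnn1, Cpt1a, Bdh1, Slc25a20 and Crot passed in all 25 fits that left out a liver and in all 9 other alternatives. Angptl4 missed without the livers high in acute phase genes, and Decr1 there (0.0700) and without a filter (0.0571).

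For HFD in p53KO the reported fit called 3 members, with 229 genes higher and 176 lower in all. The count was 6 under DESeq2 (480 and 427), 10 under limma voom (1112 and 1077) and 7 with the replicate block (445 and 340). It was 0 with the compared groups only (73 and 48) and 0 without the livers high in neutrophil genes (226 and 262). Without those high in acute phase genes it was 1 (176 and 151), and when 1 liver was left out it was 0 to 10. The calls were 0 without Control_p53KO 1, 2, 3 or 6 or HFD_p53KO 2 or 4. They were 1 without Control_p53KO 5 or HFD_p53KO 1, 3 or 6, and 10 without Control_p53KO 4 (454 and 306). For HFD in Rosa26KO the reported fit called 0 members, with 63 genes higher and 150 lower in all. The count was 1 under DESeq2 (223 and 392), 8 under limma voom (1493 and 1545) and 2 with the replicate block (202 and 347). It was 1 with the run term (156 and 286) and 1 with the compared groups only (270 and 383). Without the livers high in neutrophil genes it was 2 (203 and 335). When 1 liver was left out it was 0 to 1, with 1 without Control_p53KO 3 (124 and 248). The cause of these shifts was not tested. No called member changed sign, and the genotype comparisons and the interaction had 0 member calls under each alternative run.

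Depth limits Fgf21 most, which had 0.116 CPM in its lowest liver. The labels do not say that replicate numbers pair livers, though same-numbered livers fall in the same run of library names. Over 36 same-numbered pairs the deviations correlated by -0.38 to 0.62, over 0.1 in 17, and 18 of 72 best matches were to the same number.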
